A study of Mus musculus with 36 samples.

Results

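The comparison of nicotine-exposed with water control embryos used 24 of the 36 arrays of a mouse study, chosen by the treatment group in the labels: 12 embryos labelled Nicotine and 12 labelled Control. All were male whole embryos of the inbred strain C57BL/6J, collected 9.5 days post coitum. The mothers of the Nicotine group drank freebase nicotine at 100 µg/ml by choice from 0.5 to 8.5 days post coitum, so the dose each embryo met is not known, and it was collected 1 day after exposure ended. A further 12 embryos of mothers that drank 10% ethanol by volume over the same days shared the fit. No genotype was altered in any group, and the labels do not say which embryos were littermates. Each embryo was read on 1 Illumina bead array, which gives 1 fluorescence intensity per probe; precision is limited by how many arrays there are.

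At mid-gestation the mouse embryo still grows from its tail end. The tail bud holds progenitors of the spinal cord and of the paraxial mesoderm, the tissue that is cut into somites, and Wnt and Fgf signals keep them in place there. Cdx transcription factors act downstream of these signals and switch on Hox genes of the trunk and tail, which give each level of the body axis its identity. At the same stage neural crest cells fill the branchial arches of the face, and mesenchyme begins to lay down extracellular matrix. Nicotine acts on nicotinic acetylcholine receptors, ligand-gated ion channels of neurons and muscle.

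In nicotine-exposed embryos 9 of 18 measured tail bud genes and 4 of 13 trunk and tail Hox genes passed the test as higher, and 0 of either as lower. Without members that needed the nicotine arrays to pass the intensity filter, the higher counts were 7 of 16 and 4 of 11. Of 52 extracellular matrix genes 5 passed as lower, as did 2 of 20 genes of the branchial arches and face. Hoxc10, Cdx2, Tbx6 and Evx1 differed by 1.18 to 1.5 on the log2 scale. Ptx3, Lamc3 and Dlx1 differed by -1.04 to -0.79. Of 9683 genes with a probe bright enough to test, 66 rose (0.682%) and 45 fell (0.465%), 111 in all (1.15%), at an adjusted p of 0.05. The test was limma on log2(intensity + 16) over all 36 arrays, with replicate number as a block and Benjamini-Hochberg adjustment over 16927 probes. In it 194 probes passed, and 3000 had an unadjusted p under 0.05.

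These calls rest on the pairing by replicate number. Without that block limma called 0 genes and 1 probe, with 1102 probes at an unadjusted p under 0.05, while the differences themselves are the same in both fits. On the 24 arrays alone, with the block, 8 genes were called, all higher: Dgkk, Epha5, Hoxd9, Dusp5, Hoxd8, Prickle1, Hoxc10 and Wnt3a. Leaving out replicate 2, 6 or 7 left 0 called genes, leaving out replicate 10 left 36 and leaving out replicate 3 left 66. Within replicates 1 to 6 or 7 to 12 alone the count was 0.

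**Figure D1:**
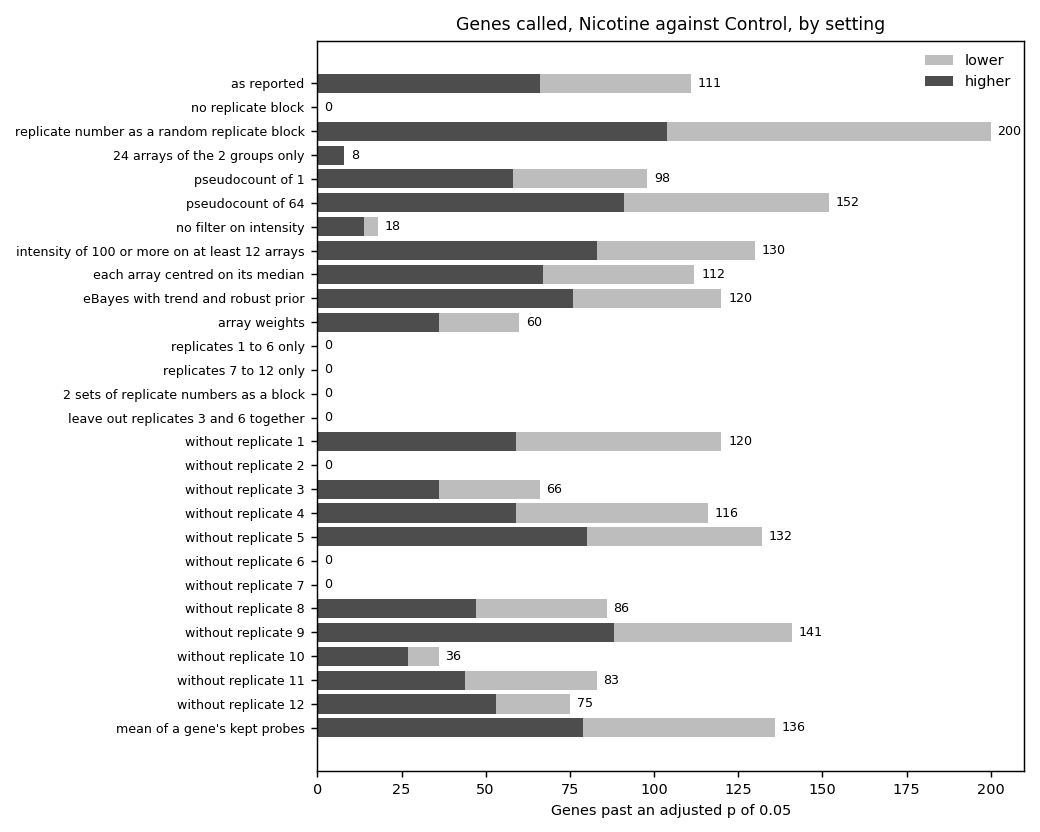
Bars give the number of genes past an adjusted p of 0.05 (limma) for nicotine against control, dark for higher and light for lower, under each setting named on the vertical axis. The reported fit calls 111, and 8 settings call 0.

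Some arrays stood apart. Replicates 1 to 6 and 7 to 12 of all 3 groups separated on the first principal component (48.1% of the variance, scores 17.9 to 44.5 against -41.4 to -24.5). The 3 arrays numbered 6 scored 39.4 to 54.4 on the second component, and the other 33 scored -26.6 to 16.2. Single embryos differed in tissue markers, summed over all listed genes on the array whether or not they passed the intensity filter. The summed intensity of 25 heart muscle genes was 12370 in Nicotine 3 against a group median of 73430. The sum of 25 decidua and placenta genes was 57550 in Control 3 against a group median of 1073. That of 27 yolk sac and liver bud genes was 65980 in Nicotine 1 against a group median of 5175. The same sum was 40660 in Control 3 against a group median of 4907. Without replicate 1, 120 genes were called, 79 of them among the 111. Without replicate 6, 0 were called, and Ptx3 differed by -0.86 and Dlx1 by -0.65, beside -1.04 and -0.79 with it, while Hoxc10 differed by 1.5 either way.

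The tail bud list held 25 genes, of which 18 were measured. Of these, 9 rose and 0 fell, 17 of 18 lay above zero, and the median difference was 0.51, beside 0.01 over all 9683 genes, 5276 of which lay above zero. The list was chosen with earlier results of these embryos known, so its count is a description. Without Epha5 and Nkx1-2, which needed the nicotine arrays to pass the intensity filter, 7 of 16 rose and the median was 0.49. The median over all 18 measured members, Epha5 and Nkx1-2 included, was above zero in 11 of 12 same-numbered pairs. It ran from -0.38 in pair 5 to 1.22 in pair 7.

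Cdx2, the caudal homeobox factor that drives growth of the body axis, read 65.4 in the dimmest control embryo, 381 at the control median and 1049 in the brightest. The nicotine embryos read 251, 1426 and 2081. Thus 8 nicotine embryos lay above every control, yet Nicotine 5 lay below the control median and the groups overlapped. The difference was 1.32 (SE 0.306, adjusted p = 0.0334, limma), a fold of 2.49, with 11 of 12 pairs higher. Cdx4, its X-linked relative, went from 11.1, 47.2 and 133.1 (lowest, median, highest) in control to 26.5, 113.9 and 277.4 in nicotine embryos. Here 5 nicotine embryos exceeded the brightest control, and Nicotine 5 was again the dimmest. The difference in Cdx4 was 0.84 (SE 0.20, adjusted p = 0.0345). Cdx1, the third family member, rose by 0.50 (SE 0.125, adjusted p = 0.0445), and its dimmer probe by 0.61.

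Tbx6, the T-box factor that commits progenitors to paraxial mesoderm, ran from 12.0 through a median of 84.9 to 250.6 in control embryos. In nicotine embryos it ran from 58.2 through 215.6 to 571, with Nicotine 3 highest. Only 5 nicotine embryos were above the brightest control, and in 9 of 12 pairs the nicotine embryo was higher. The Tbx6 difference was 1.32 (SE 0.289, adjusted p = 0.0273). Of 14 measured genes of presomitic mesoderm and segmentation 1 rose, Tbx6 itself, and the list median was 0.14. Dll1, a Notch ligand of the segmentation clock, differed by 0.44 (SE 0.184, adjusted p = 0.204).

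Evx1, a homeobox gene of the primitive streak and tail bud, had readings of 30.0, 180.5 and 511.5 in control embryos, again as lowest, median and highest. Nicotine embryos had 135.1, 616 and 953. The overlap came from nicotine embryos such as Nicotine 5, the dimmest, while 7 others were above every control. The difference was 1.18 (SE 0.293, adjusted p = 0.0440). Nkx1-2, a homeobox gene of the pre-neural progenitors beside the streak, read 5.31, 27.4 and 78.1 against 6.52, 109.3 and 158.3. In 8 nicotine embryos it was brighter than in any control, and in Nicotine 5 it was near the control minimum. Both Nkx1-2 probes rose, by 1.15 (SE 0.256, adjusted p = 0.0273) and 0.83.

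Epha5, a receptor tyrosine kinase for ephrin-A ligands, was dim in control embryos, from 9.31 through 20.8 to 32.5. In nicotine embryos it ran from 8.76 through 54.96 to 102.7, and 9 of them lay above every control while Nicotine 5 lay below every control. Epha5 and Nkx1-2 needed the nicotine arrays to pass the intensity filter. Epha5 reached 32 on 1 control, 2 ethanol and 9 nicotine arrays, and Nkx1-2 on 4, 3 and 8. Without the control arrays each reached it on 11, also short of the 12 needed. A gene brighter in exposed embryos is more readily kept in this way, so their calls are a description and support nothing. The Epha5 difference was 0.82 (SE 0.151, adjusted p = 0.0158), with 11 of 12 pairs higher. Epha5 was the only called member of 13 measured Eph receptors and ephrins, whose median was -0.08. Greb1, an oestrogen-regulated gene also active in the tail bud, had a called difference of 0.48 (SE 0.117, adjusted p = 0.0388), with 0.62 at its dimmer probe.

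Members of the tail bud list that did not pass ranged from -0.02 to 0.89. Fgf17, an Fgf ligand, differed by 0.89 (SE 0.27, adjusted p = 0.0868), and Sp5, a transcription factor switched on by Wnt signals, by 0.51 (SE 0.139, adjusted p = 0.0619) with all 12 pairs higher. Fgf8, the main Fgf ligand of the tail bud, differed by 0.12 (SE 0.142). Sox2, a factor of neural progenitors along the whole axis, differed by -0.02 (SE 0.188). Fgf8, Sox2, Hoxd12 and Hoxa13 are named after their values were seen.

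**Figure D2:**
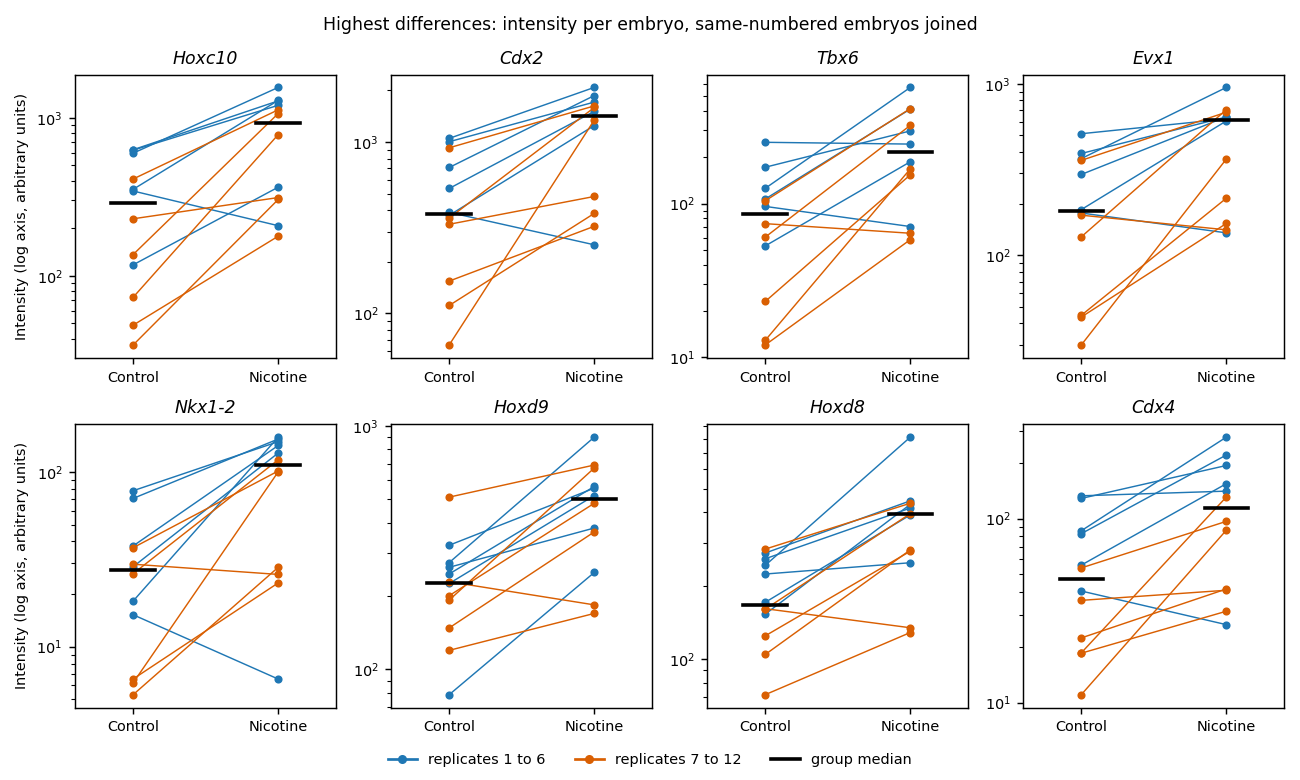
Each panel plots intensity (log axis, arbitrary units) of 1 gene in 12 control and 12 nicotine embryos, with same-numbered embryos joined and black bars at the group medians; blue marks replicates 1 to 6 and orange 7 to 12. The genes are the 8 with the highest difference, and in each of them the groups overlap, with 5 to 8 nicotine embryos above the brightest control.

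Of 23 measured Hox genes 5 rose. All 11 measured genes of groups 6 to 10 lay above zero, with a median of 0.63 and a range of 0.35 to 1.5, and 4 of them rose. Hoxa9 of these, at 0.56, needed the nicotine arrays to pass the intensity filter, so its place above zero supports nothing. Hoxd12 of groups 11 to 13 needed them too. Without Hoxa9 and Hoxd12, 4 of 11 trunk and tail Hox genes rose and the median was 0.63. Among 10 measured genes of groups 1 to 5 the median was 0.19, 8 lay above zero and 1, Hoxb1, rose. Groups 11 to 13 had 2 measured genes, Hoxd12 at -0.25 (SE 0.28) and Hoxa13 at 0.06 (SE 0.0738). Replicates 1 to 6 gave groups 6 to 10 a median of 0.57, and replicates 7 to 12 one of 0.66. For groups 1 to 5 those medians were 0.51 and -0.07.

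Hoxc10, a gene of the lumbar level, read 36.5 in Control 11, 287 at the control median and 628 in Control 1. The nicotine embryos ran from 178 in Nicotine 12 through 923 to 1556 in Nicotine 3. Their 7 brightest exceeded every control. The difference was 1.5 (SE 0.308, adjusted p = 0.0215), a fold of 2.82, and the second probe gave 1.18. In replicates 1 to 6 it reached 0.99, and in replicates 7 to 12 it reached 2.0. Leaving out 1 replicate at a time kept it between 1.35 and 1.70, with 9 of 12 such fits past the threshold.

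Hoxd9, a gene of the posterior trunk, read 78.7, 227 and 509.5 in control against 169.7, 499 and 899 in nicotine embryos. Its neighbour in the cluster Hoxd8 read 71.6, 166 and 283 against 128.7, 392 and 812. Nicotine 3 was the brightest and Nicotine 12 the dimmest exposed embryo for both, and 6 and 7 nicotine embryos were above every control. The differences were 0.95 for Hoxd9 (SE 0.198, adjusted p = 0.0222) and 0.86 for Hoxd8 (SE 0.157, adjusted p = 0.0158). Hoxc6, a gene of the anterior trunk, read 705, 1306 and 1962 in control and 982, 2155 and 3063 in nicotine embryos, with 9 of these above every control. It rose by 0.63 (SE 0.14, adjusted p = 0.0273).

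Hoxb1, which patterns the hindbrain and is also active in the tail bud, read 147.6, 191 and 292 in control and 156, 374 and 544 in nicotine embryos. The exposed embryos exceeded every control in 9 cases, but the dimmest, Nicotine 12, lay among the controls. The rise was 0.74 (SE 0.151, adjusted p = 0.0215), and the second probe gave 0.70. Hoxb6 at 0.51 (adjusted p = 0.0548), Hoxd10 at 0.95 (adjusted p = 0.0667) and Hoxc9 at 0.64 (adjusted p = 0.0819) did not pass.

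**Figure D3:**
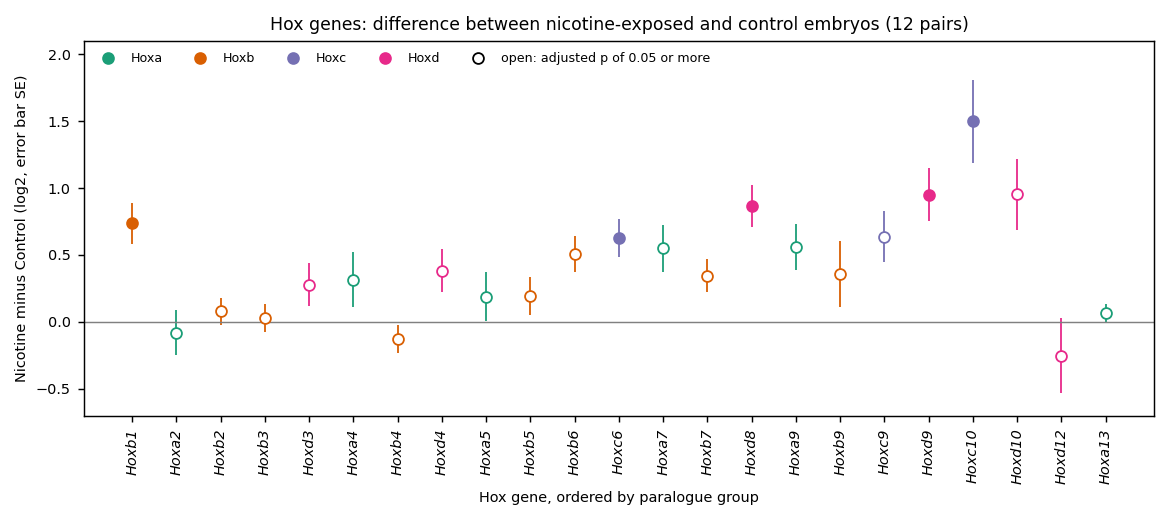
Points give the nicotine minus control difference (log2, error bar 1 SE, 12 pairs) of 23 Hox genes ordered by paralogue group, coloured by cluster and filled where the adjusted p was under 0.05. All 11 genes of groups 6 to 10 lie above zero, among them Hoxa9, which passed the intensity filter only with the nicotine arrays. Groups 1 to 5 range from -0.13 to 0.74.

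Embryos were not alike in these genes. Among the 25 genes with the largest rise, Nicotine 3 was the brightest exposed embryo for 9, Nicotine 8 for 6 and Nicotine 7 for 5. Nicotine 5 was the dimmest for 11 and Nicotine 12 for 8. Replicate 3 is the number of the embryo with the low heart sum and of Control 3, with the high decidua and yolk sac sums. Without replicate 3, Hoxc10 differed by 1.51, Cdx2 by 1.35 and Tbx6 by 1.25. Of 13 tail bud and trunk Hox genes called with all replicates, 13 stayed above zero and 5 stayed past the threshold in that fit. They were picked as higher on arrays that this fit mostly shares, and Epha5 and Nkx1-2 are among them. Their sign is therefore a description. The part of the heart sum of Nicotine 3 in the calls was not tested further.

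Promoters of the called tail bud, Hox and Wnt feedback genes were read for 3 motifs on both strands: TTTATNG, letters read by Cdx and posterior Hox proteins; CTTTGA, letters read by the Tcf and Lef partners of Wnt signalling; and AGGTGTGA, letters read by T-box proteins. The sequences are from RefSeq on GRCm38.p6, from 250 bases before to 50 after the start. Of 15 genes, 12 had an entry, with 13 promoters; Cdx1, Hoxc10 and Hoxc6 had none. TTTATNG was in 2 of 13 (15.4%), beside 10.9% of all 32851 promoters in the table. CTTTGA was in 2 of 13 (15.4%) beside 16%, and AGGTGTGA in 1 of 13 (7.69%) beside 1.28%. A match is a description of the letters and no evidence of binding. Of the 5 genes with a match (Tbx6, Evx1, Hoxd9, Hoxd8 and Greb1), the 4 of largest difference are printed, chosen after the matches were seen, with the match in capitals. In Tbx6 (chr7:126781233-126781532, plus strand) and Evx1 (chr6:52313248-52313547, plus strand) the capitals are TTTATNG read on the opposite strand, and in Tbx6 they contain the letters TATAAA of a TATA box. In Hoxd9 (chr2:74697513-74697812, plus strand) they are AGGTGTGA, and in Hoxd8 (chr2:74704365-74704664, plus strand) the capitals are 2 copies of CTTTGA.
Tbx6: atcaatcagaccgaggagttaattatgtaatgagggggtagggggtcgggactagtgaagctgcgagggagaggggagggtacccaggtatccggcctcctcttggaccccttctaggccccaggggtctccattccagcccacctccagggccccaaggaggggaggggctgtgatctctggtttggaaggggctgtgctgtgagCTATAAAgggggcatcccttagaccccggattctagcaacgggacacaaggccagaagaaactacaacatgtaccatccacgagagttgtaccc
Evx1: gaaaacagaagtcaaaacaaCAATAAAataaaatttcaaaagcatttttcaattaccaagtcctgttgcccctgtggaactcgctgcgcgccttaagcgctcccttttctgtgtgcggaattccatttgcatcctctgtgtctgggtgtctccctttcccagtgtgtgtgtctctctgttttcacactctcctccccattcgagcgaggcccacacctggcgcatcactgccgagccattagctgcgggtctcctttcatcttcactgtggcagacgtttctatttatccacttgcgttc
Hoxd9: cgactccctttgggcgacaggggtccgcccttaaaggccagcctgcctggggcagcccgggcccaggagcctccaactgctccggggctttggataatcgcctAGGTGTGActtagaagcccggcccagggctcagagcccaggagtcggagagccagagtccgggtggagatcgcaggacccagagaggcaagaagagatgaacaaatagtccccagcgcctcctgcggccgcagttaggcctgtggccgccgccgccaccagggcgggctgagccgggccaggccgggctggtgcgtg
Hoxd8: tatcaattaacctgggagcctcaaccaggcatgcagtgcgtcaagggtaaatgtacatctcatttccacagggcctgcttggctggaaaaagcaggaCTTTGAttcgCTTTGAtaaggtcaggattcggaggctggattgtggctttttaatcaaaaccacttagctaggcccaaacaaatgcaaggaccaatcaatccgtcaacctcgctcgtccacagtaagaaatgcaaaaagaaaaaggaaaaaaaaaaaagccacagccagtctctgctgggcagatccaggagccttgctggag

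Wnt3a, the Wnt ligand that maintains tail bud progenitors, read 276, 386 and 554 in control embryos (lowest, median, highest) and 396, 672 and 818 in nicotine embryos. As for Hoxb1, 9 exposed embryos exceeded every control, and Nicotine 5 was the dimmest. It rose by 0.64 (SE 0.158, adjusted p = 0.0435). Fzd10, a Wnt receptor, rose by 0.46 (SE 0.117, adjusted p = 0.0468), while its 2 dimmer probes gave 0.26 and 0.31 and did not pass. These were the 2 called members of 24 measured Wnt ligands and receptors, whose median was 0.03. Fzd1, another receptor, differed by -0.32 (SE 0.0861, adjusted p = 0.0613), and it needed both the control and the nicotine arrays to pass the intensity filter.

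Among 17 measured Wnt targets and inhibitors 1 rose, and the median was 0.07. It was Axin2, which feeds back to shut the Wnt pathway down, at 0.30 (SE 0.0659, adjusted p = 0.0273) with 11 of 12 pairs higher. Dkk1, a secreted Wnt inhibitor, differed by 0.33 (SE 0.0896, adjusted p = 0.0619). Of 19 measured genes of Fgf signalling and its feedback 1 rose, and the median was 0.19. This was Dusp5, a nuclear phosphatase of ERK, at 0.43 (SE 0.0813, adjusted p = 0.0176) with all 12 pairs higher. Dusp4, a related phosphatase, differed by 0.37 (SE 0.0961, adjusted p = 0.0529) and Etv4, a transcription factor downstream of Fgf, by 0.25 (SE 0.102).

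Other developmental regulators rose outside the tail bud list. Gbx2, the homeobox gene that positions the front of the hindbrain, read 589.9, 701 and 1170.0 in control and 768, 1258 and 1645 in nicotine embryos. The 8 brightest exposed embryos were above every control. It rose by 0.67 (SE 0.146, adjusted p = 0.0273), the only called gene of 26 measured in neural patterning, whose median was 0.15. The spalt zinc finger genes rose together: Sall3 by 0.63 (SE 0.147, adjusted p = 0.0341), Sall1 by 0.35 (SE 0.0839, adjusted p = 0.0381) and Sall4 by 0.34 (SE 0.081, adjusted p = 0.0381). The dimmer probes of Sall3 and Sall4 gave 0.55 and 0.13 and did not pass, and that of Sall1 passed at 0.56. Sall1 and Sall4 were the 2 called members of 11 genes of the Lin28 programme and early pluripotency, median 0.05. Lin28b, an RNA-binding brake on let-7 microRNAs, differed by 0.21 (SE 0.0744, adjusted p = 0.136). Lin28a, its close relative, differed by 0.25 (SE 0.109, adjusted p = 0.235) at its brightest probe; a dimmer probe passed at 0.57 (adjusted p = 0.0158) with all 12 pairs higher, and the other 2 gave 0.30 and 0.15 without passing.

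Arhgap24, which switches off Rac-type GTPases, read 168, 253.5 and 408 in control and 226, 443.5 and 682 in nicotine embryos. In 7 exposed embryos it was above the brightest control, and Nicotine 5 was again dimmest. It rose by 0.70 (SE 0.142, adjusted p = 0.0212). Ifitm1, an interferon-induced membrane protein gene that is also active in early mesoderm, rose on all 3 of its probes, by 0.48 (SE 0.0926, adjusted p = 0.0194), 0.88 and 0.59, with all 12 pairs higher on the brightest probe. Dgkk, a diacylglycerol kinase, rose by 0.45 (SE 0.0878, adjusted p = 0.0194) in all 12 pairs (0.23 at a dimmer probe, not called), and Nptx2, a secreted neuronal pentraxin, by 0.44 (SE 0.104, adjusted p = 0.0345) in all 12. Fam131b rose by 0.60, Slc11a1, a metal ion transporter, by 0.44 and Camkv by 0.43.

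Smaller rises were called for genes of several other kinds. The planar cell polarity genes Prickle1 and Celsr1 rose by 0.27 (SE 0.0564) and 0.36 (SE 0.0789). Alpl, tissue-nonspecific alkaline phosphatase, rose by 0.40 (SE 0.0886). Orc1, a subunit of the origin recognition complex, and E2f4, a cell cycle transcription factor, each rose by 0.30 (SE 0.0663 and 0.0676). Gemin5 and Gemin4, of the complex that assembles splicing particles, rose by 0.32 (SE 0.0784) and 0.20 (SE 0.0449), though the dimmest Gemin4 probe gave -0.02. The dimmer Prickle1 probe gave 0.06. Adjusted p-values of these genes lay between 0.0215 and 0.0440 (limma). Prickle1, Celsr1, Alpl, Orc1, E2f4, Gemin4 and Gemin5 are named after their values were seen.

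Ribosome biogenesis genes had small differences, most of them above zero. Of 35 measured, 30 lay above zero, the median was 0.12, and it was above zero in 11 of 12 pairs. The called member was Rrp9, a protein of the U3 particle that processes ribosomal RNA, at 0.24 (SE 0.0504, adjusted p = 0.0234). Ncl, nucleolin, differed by 0.19 (SE 0.0518, adjusted p = 0.0619). Cytosolic ribosomal proteins had a median of 0.01 with 0 of 48 called, and cell cycle and replication genes -0.02 with 0 of 33.

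Of 52 measured extracellular matrix genes 5 fell and 0 rose, 42 lay below zero, and the median was -0.24, with the background of falls at 0.465% of genes. The list median was below zero in 9 of 12 pairs, from -0.88 in pair 2 to 0.18 in pair 4. In bulk tissue, fewer cells of a type and less RNA per cell cannot be told apart.

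Ptx3, a secreted pentraxin that binds matrix and microbes, read 46.9, 109.5 and 295 in control embryos and 13.9, 42.0 and 177 in nicotine embryos. The 7 dimmest exposed embryos were below every control, and Nicotine 5 was the brightest. The difference was -1.04 (SE 0.242, adjusted p = 0.0334), and a second probe gave -0.69 without passing. Lamc3, a laminin chain of basement membranes, was dim: 15.4, 66.9 and 110.4 in control and 10.0, 17.4 and 69.9 in nicotine embryos. Only 4 exposed embryos were below every control. It fell by 0.80 (SE 0.183, adjusted p = 0.0317).

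Pcolce, which helps to cut procollagen to collagen, read 305.5, 531.5 and 709 in control against 178.5, 336 and 521.5 in nicotine embryos. Here 4 exposed embryos were below the dimmest control, and the rest were among the controls. It fell by 0.55 (SE 0.127, adjusted p = 0.0335), with 1 of 12 pairs higher. Serpinf1, a secreted antiangiogenic serpin, fell by 0.51 (SE 0.126, adjusted p = 0.0440). Mfap2, a microfibril component, fell by 0.37 (SE 0.0862, adjusted p = 0.0339) in all 12 pairs, and 7 nicotine embryos were below every control; of its 2 other probes 1 passed, at -0.49, and the other gave -0.33. Col26a1 at -0.50 (SE 0.128, adjusted p = 0.0529), Lox, the collagen cross-linking enzyme, at -0.51 (SE 0.138, adjusted p = 0.0608) and Dcn, decorin, at -0.70 (SE 0.199, adjusted p = 0.0691) did not pass.

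Genes of the branchial arches and face had 20 measured members, of which 2 fell, 16 lay below zero and the median was -0.23. Dlx1, a homeobox gene of arch and forebrain, read 177, 339 and 483 in control against 81.0, 179.6 and 288 in nicotine embryos. Every pair was lower, and 5 exposed embryos lay below all controls, but the groups overlapped. It fell by 0.79 (SE 0.183, adjusted p = 0.0334). Nr2f2, the nuclear receptor COUP-TFII of mesenchyme and veins, fell by 0.37 (SE 0.07, adjusted p = 0.0158) in all 12 pairs. Its other probes gave -0.59, which passed, and -0.31, which did not. Barx1, a homeobox gene of the arches and stomach, differed by -0.87 (SE 0.231, adjusted p = 0.0577), and Prrx1, a mesenchymal homeobox gene, by -0.46 (SE 0.14, adjusted p = 0.0849).

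Of 14 measured neural crest specifiers 1 fell, and the median was -0.13. It was Tfap2b, an AP-2 factor of crest cells, at -0.48 (SE 0.103, adjusted p = 0.0264); its other probes gave -0.43, -0.27 and -0.05 and did not pass. Neuronal differentiation genes had 0 of 24 called, but 18 lay below zero with a median of -0.25. Without Cplx2 and Stmn3, which needed the control arrays to pass the intensity filter, the median of the 22 left was -0.245. Ebf3, a neuronal transcription factor, differed by -0.60 (SE 0.162, adjusted p = 0.0613), and Mapt, the microtubule protein tau, by -0.45 (SE 0.127, adjusted p = 0.0691) with every pair lower.

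**Figure D4:**
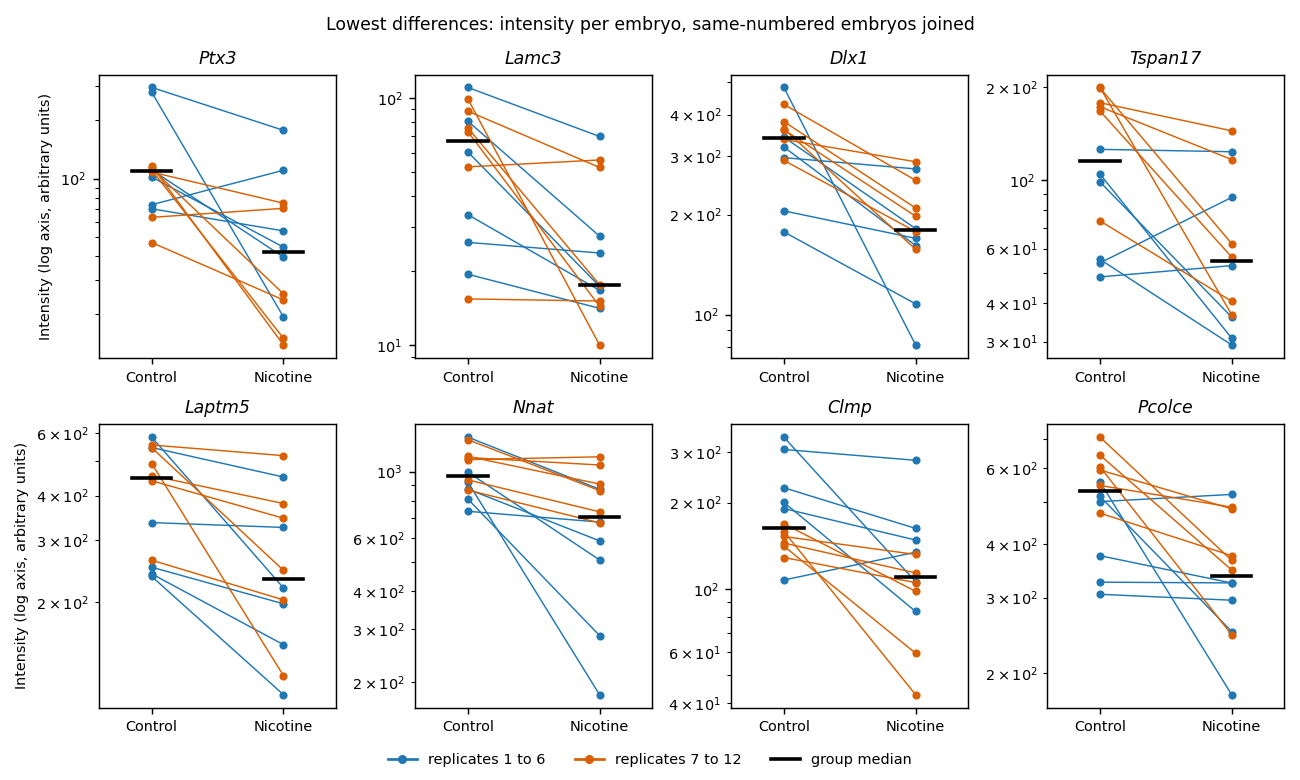
Each panel plots intensity (log axis, arbitrary units) of 1 gene in 12 control and 12 nicotine embryos, same-numbered embryos joined, with black bars at the group medians. These are the 8 genes with the lowest difference, in which 4 to 7 nicotine embryos lie below every control and the groups overlap.

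Cell type markers were read beside these groups. All 21 measured endothelial markers lay below zero, with a median of -0.26 and 0 called; the nearest, Fli1, differed by -0.48 (SE 0.144, adjusted p = 0.0828). The summed intensity of all 25 endothelial markers on the array ran from 10190.0 through 14010.0 to 16820.0 in control embryos. In nicotine embryos it ran from 7622 through 12370 to 16220.0. Of 26 macrophage and blood markers on the array only 6 reached the intensity minimum, and Adgre1, Csf1r and Ptprc did not. All 6 lay below zero (median -0.46). Lcp1 among them passed the intensity filter only with the control arrays, so its place below zero supports nothing. Without Lcp1 the median of the 5 left was -0.41. The called one was Laptm5, a lysosomal protein of blood cells, which read 236, 448 and 585 in control and 109.3, 232 and 519 in nicotine embryos. It was lower in all 12 pairs, with 6 exposed embryos below every control, and fell by 0.63 (SE 0.159, adjusted p = 0.0444). The part of these cell types in the lower genes was not tested.

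Heart muscle markers had a median of -0.25 with 0 of 22 called; without replicate 3 the median was 0.11. Markers of decidua and placenta had a median of -0.80 with 0 of 7 called, and pair medians from -6.36 in pair 3 to 4.69 in pair 6. Prl2c3, Prl2c4, Prl3d3 and Prl8a2 among them needed both the control and the nicotine arrays to pass the intensity filter. Without these the median of the 3 left was -0.13. Yolk sac and liver bud markers had a median of -0.02 with 0 of 17 called, 0.33 without replicate 3 and -0.19 without replicate 12, and primitive erythroid markers -0.01 with 0 of 16.

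**Figure D5:**
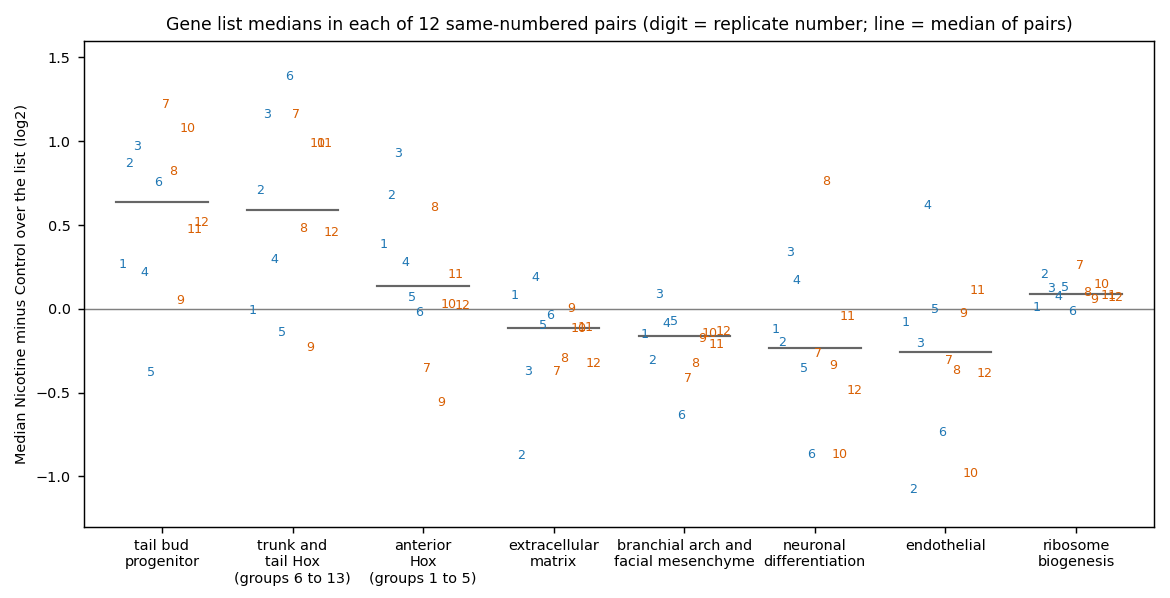
Each digit is the replicate number of a same-numbered pair, placed at the median nicotine minus control difference (log2) over the measured genes of a list; the horizontal bar is the median of the 12 pairs. The tail bud median is above zero in 11 pairs, the trunk and tail Hox median in 9, and the arch and facial median below zero in 11. These medians include members that needed the nicotine arrays to pass the intensity filter.

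Several of the lower genes belong to no list. Tspan17, a tetraspanin, read 48.6, 115 and 199 in control and 29.3, 54.6 and 144 in nicotine embryos, with 5 of these below every control. It fell by 0.73 (SE 0.174, adjusted p = 0.0345). Clmp, an adhesion molecule of tight junctions, fell by 0.61 (SE 0.145, adjusted p = 0.0345). Plpp3, an enzyme that breaks down lysophosphatidic acid outside cells, fell by 0.48 (SE 0.0888, adjusted p = 0.0158) in all 12 pairs, and its dimmer probe by 0.53. The transcription factors Nfib and Nfic fell by 0.48 (SE 0.102, adjusted p = 0.0241) and 0.40 (SE 0.099, adjusted p = 0.0444). Of 5 Nfib probes 2 passed, and the other 3 lay between -0.38 and -0.27.

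Synpo, synaptopodin of the actin cytoskeleton, fell by 0.49 (SE 0.105, adjusted p = 0.0251), and Ldb2, a LIM domain binding protein, by 0.50 (SE 0.118, adjusted p = 0.0345), though its dimmer probe gave -0.15. Oxct1, which lets cells use ketone bodies, fell by 0.41 (SE 0.0977, adjusted p = 0.0345). Twist2, Fstl1 and Cthrc1, genes of mesenchyme and its secreted proteins, fell by 0.38, 0.29 and 0.42. Rab11fip2, Parm1, Foxd2os, Arid5b, Itpripl2, Kank4, Tnik, Pcyt1a and Tradd fell by 0.40 to 0.51. Cthrc1 and Oxct1 follow from the naming rule, and Twist2, Fstl1 and Nfic are named after their values were seen.

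Of 19 measured imprinted genes, which are read from 1 parental copy, 1 fell, and the median was -0.03. Nnat, neuronatin, read 738, 968 and 1302 in control and 181.6, 708 and 1120.0 in nicotine embryos. The 7 dimmest exposed embryos were below every control, with Nicotine 1 lowest. It fell by 0.63 (SE 0.157, adjusted p = 0.0467), and its other probes gave -0.37 and -0.19 without passing. At their brightest probes Gnas and Peg3 were lower in all 12 pairs, at -0.40 (adjusted p = 0.0603) and -0.43 (adjusted p = 0.0764). A dimmer Gnas probe gave 0.11. Dimmer Peg3 probes gave -0.48 and -0.08 without passing, the last of them lower in 7 of 12 pairs. Phlda2, a placental growth regulator, differed by 0.84 (SE 0.269, adjusted p = 0.104).

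The targets of nicotine itself gave no call. Of 23 genes of nicotinic receptors and cholinergic signalling on the array 5 reached the intensity minimum. The receptor subunits were Chrna3 at -0.25 (SE 0.169, adjusted p = 0.461), Chrna4 at 0.06 (SE 0.185, adjusted p = 0.906) and Chrnb1 at 0.03 (SE 0.119, adjusted p = 0.914). The receptor chaperones were Ric3 at 0.20 (SE 0.0835, adjusted p = 0.212) and Tmem35a at -0.36 (SE 0.168, adjusted p = 0.266), and a dimmer Ric3 probe gave -0.02. Chrna3 needed the control arrays to pass the intensity filter, and Tmem35a needed both the control and the nicotine arrays. The signs of these 2 genes therefore support nothing. For Chrna4 the control embryos read 31.2, 117.6 and 249.2 and the nicotine embryos 56.5, 114 and 210.3, which span the same range. The other 18 were not bright enough to compare.

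Enzymes and sensors of foreign compounds likewise had 0 of 9 called and a median of -0.09. Cyp1b1, an enzyme induced through the aryl hydrocarbon receptor, differed by -0.20 (SE 0.119), and Ahrr, the repressor of that receptor, by 0.15 (SE 0.0969). Ahrr needed the nicotine arrays to pass the intensity filter, so its place above zero supports nothing. Without Ahrr the median of the 8 left was -0.10. Cyp2d22 differed by -0.14 (SE 0.0719), Arnt by -0.11 (SE 0.0591), Nqo1 by -0.05 (SE 0.0774) and Fmo1, a flavin monooxygenase, by -0.13 (SE 0.306). The glutathione transferases Gsta4, Gstp1 and Gstm1 differed by 0.15 (SE 0.071), -0.09 (SE 0.0493) and -0.04 (SE 0.234). Dimmer Arnt probes gave 0.27 and 0.15. All 9 had adjusted p-values between 0.268 and 0.949.

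Stress and metabolic lists were near the median of all genes. Antioxidant genes had 0 of 25 called (median 0.00) by their brightest probes. Gpx8, a peroxidase of the endoplasmic reticulum, differed by -0.24 (adjusted p = 0.0842); another of its probes passed at -0.24 (adjusted p = 0.0273) with all 12 pairs lower, and the last gave -0.22. Glycolysis and hypoxia genes had 0 of 26 called (0.04), cholesterol synthesis 0 of 18 (0.00) and oxidative phosphorylation 0 of 50 (0.03). Of 24 genes of p53 response and apoptosis 1 rose, Bid, a proapoptotic Bcl-2 relative, at 0.31 (SE 0.0713, adjusted p = 0.0286), and the median was -0.02. Immediate early genes had 0 of 15 called (median 0.03), and elongation complex genes 0 of 16 (0.04). Mllt3 of that last list, a reader of acetylated histones, held the 1 probe that passed without the block, at 0.54; its 3 other kept probes gave 0.24, 0.03 and -0.12.

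The remaining developmental lists had medians near zero. Somite and early muscle genes had 0 of 8 called (median 0.01), retinoic acid genes 0 of 11 (0.07), BMP genes 0 of 18 (-0.04) and notochord and gut genes 0 of 20 (-0.04). The limb and lateral plate list (20 measured, median -0.09) and the intermediate mesoderm list (9 measured, median -0.02) each had 1 call, through Sall4 and Sall1.

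Nicotine embryos were also set against the 12 ethanol embryos, with the same nicotine arrays, so the result is not independent of the comparison with water. In that fit 18 genes were higher (0.186%) and 19 lower (0.196%), and 69 probes passed, while ethanol against control had 0 calls (784 probes at an unadjusted p under 0.05). Tail bud genes had 4 of 18 higher and a median of 0.61 against ethanol, and the ethanol minus control median was -0.09. Cdx4 differed by 1.14 (adjusted p = 0.0198) and Greb1 by 0.58 (adjusted p = 0.0408). The other 2, Nkx1-2 at 1.35 and Epha5 at 0.97, are those that needed the nicotine arrays, and their calls here support nothing either. Both are also in the median of 0.61. With the 24 nicotine and ethanol arrays alone, 0 probes passed.

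Single genes stood differently between the drinks. Hoxc10 was 1.41 above ethanol (adjusted p = 0.0443), and ethanol minus control was 0.08. Gbx2 was 0.66 above ethanol (adjusted p = 0.0443), Axin2 0.30 (adjusted p = 0.0443) and Rrp9 0.25 (adjusted p = 0.0408). Hoxd9, by contrast, differed by 0.54 from ethanol (adjusted p = 0.224), and ethanol minus control was 0.41. Tmem267, a transmembrane protein gene that rose by 0.49 against control, differed by 0.00 from ethanol, and ethanol minus control was 0.49 too. Among lower genes, Nr2f2 differed by -0.34 from ethanol (adjusted p = 0.0417) and Plpp3 by -0.49 (adjusted p = 0.0237). Barx1, not called against water, differed by -1.07 from ethanol (adjusted p = 0.0443). Tfap2b differed by -0.13 (adjusted p = 0.585), with ethanol minus control at -0.35.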

How the data were processed

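Illumina bead arrays of 36 male mouse embryos were grouped by the treatment group and replicate number in the sample titles. The authors deposited linear-scale intensity, 1 value per probe and embryo; per the submitters' processing notes GenomeStudio 1.9.0 was used. How background was corrected or arrays were normalized is not given in these sources. Array medians were 10.7 to 10.8, so no normalization was added. The 72 columns of a non-normalized file match no sample label and were not used. The deposited intensity was turned into log2(intensity + 16), which understates changes of dim probes, and probes reaching 32 on at least 12 arrays were kept (16927 of 45281). Symbols came from the platform annotation (34885 probes with 1 symbol, 18 with several, 10378 unnamed). The brightest kept probe stood for a gene.

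Groups were compared with limma 3.58.1 in R 4.3.3 (lmFit, eBayes, two-sided) on 36 arrays, with replicate number as a block (22 residual degrees of freedom) and Benjamini-Hochberg adjustment at 0.05. Deviations from group means correlated above 0.1 in all 12 same-numbered nicotine and control pairs (mean 0.563), against 0.437 for other numbers of the same set of 6 and -0.453 across sets. Only 4 of 12 nicotine arrays matched their own number best, so the data pair the numbers at least by set, and the labels do not say what a number marks. P-values measure the spread between these embryos that is left after group and replicate number means are removed, over all 36 arrays. Littermates are not known, so the p-values do not measure the spread between mothers.

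The comparison, the block, the 39 gene lists and the named genes were chosen with earlier results of these data known. Named were the 25 highest and 25 lowest called genes, called members of each list with the 4 others of smallest p, and all measured cholinergic and xenobiotic genes. Differences are log2. The steps were tested on simulated data. Alternatives were other blocks, pseudocounts, intensity filters, centring, priors, array weights, probe averaging and sets of replicates.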

Additional observations from a re-analysis of the deposited data

Results flagged for a closer look

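For 2 probes the nicotine minus control difference itself differed between replicates 1 to 6 and 7 to 12 by an interaction term in limma, with 1879 probes at an unadjusted p under 0.05. Slu7, a splicing factor, differed by -0.69 in replicates 1 to 6 and by 0.15 in 7 to 12, an interaction of 0.84 (SE 0.145, adjusted p = 0.0496). Tnks1bp1, a tankyrase-binding protein, differed by 0.35 and -0.32, an interaction of -0.67 (SE 0.104, adjusted p = 0.0246). Both probes are dim, with control medians of 37.5 for Slu7 and 33.1 for Tnks1bp1. With a pseudocount of 1 the count was 1, with array weights 0, and leaving out 1 replicate at a time gave 0 to 4.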

How the results depend on the processing

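Fits without the replicate block called 1 probe and 0 genes against control and 0 probes against ethanol, and a random replicate block called 350, 200 and 150. The 24 arrays of the groups compared gave 24 probes, 8 genes and 0 probes, no intensity filter 36, 18 and 10, and array weights 109, 60 and 156. All 3 counts were 0 in replicates 1 to 6, in 7 to 12 and without replicates 3 and 6 together, and were 3, 0 and 0 with the 2 sets as a block; leaving out replicates 3 and 6 and the 2-set block were chosen after seeing the data. A pseudocount of 1 gave 9 probes against ethanol. For the interaction a pseudocount of 1 gave 1 probe and array weights 0. Leaving out 1 replicate at a time gave 0 to 256 probes and 0 to 141 genes against control, 0 to 178 probes against ethanol and 0 to 4 for the interaction. Without replicate 2, 6 or 7 the gene count was 0, without replicate 10 it was 36, and the causes were not tested. Of 58 called genes under the naming rule, 0 changed sign in the 26 alternatives, with 46 of them kept at an intensity of 100 or more. These genes were picked as called on the same arrays, so their sign was likely to hold. Of the 58, 0 stayed past the threshold without the block, in replicates 1 to 6, in 7 to 12 or with the 2-set block. The same held without replicate 2, 6 or 7 and without replicates 3 and 6 together. The 13 called tail bud and trunk Hox genes were above zero in every alternative in which they were kept. They too were picked as higher on these arrays, and Epha5 and Nkx1-2 are among them, so this is a description. The median of the anterior Hox list turned to -0.07 in replicates 7 to 12, the heart median to 0.11 and the yolk sac median to 0.33 without replicate 3. Of 39 list medians 16 changed sign in at least 1 alternative; apart from the anterior Hox and heart medians, these lay within 0.1 of zero as reported.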
